A study of Mus musculus with 6 samples.

Results

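Amino acid transporters were compared between livers of Mig-6 d/d mice and livers of Mig-6 f/f mice. The group holds the genes of the solute carrier families Slc1, Slc3, Slc6, Slc7, Slc36, Slc38 and Slc43, taken by the start of their annotated symbol and without Slc1a2 and Slc6a6, and comes to 61 of the 18193 genes with a probe set of a single symbol. Of these, 46 had a probe set bright enough to be tested, among 13718 genes tested in all. RNA came from liver of male mice 8 weeks old on a mixed background, kept on standard chow and fasted for 24 h, with 3 Mig-6 d/d and 3 Mig-6 f/f arrays. The gene deleted in d/d livers is Errfi1, and its protein, Mig-6, restrains signalling by EGF receptors. The promoter that drove the deletion, and how many animals stand behind an array, are not given in the sources used here. The p-values therefore measure array-to-array spread within a genotype, which may be technical.

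Hepatocytes take up amino acids from portal and arterial blood for protein synthesis, for glucose output in fasting and for nitrogen disposal. Slc38 proteins carry small neutral amino acids and glutamine with sodium. Slc7 proteins carry cationic amino acids alone, or exchange larger neutral and other amino acids as partners of an Slc3 heavy chain that brings them to the membrane. Slc1 proteins carry acidic and small neutral amino acids, and Slc36 proteins move small amino acids with protons, while Slc43 holds facilitative carriers. The Slc6 family is named for the sodium and chloride dependent carriers of neurotransmitters, and it also holds carriers of betaine, creatine and neutral amino acids, so not every gene in the group carries an amino acid of protein.

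Errfi1 fell to a deposited intensity of 63.2 ± 4.37 in d/d livers, against 5494 ± 169 in f/f livers (SD, n = 3 each), a log2 difference of -6.10 ± 0.10 (SE, limma with Benjamini-Hochberg adjustment, adjusted p = 4.91e-08). Hepatocyte markers read at a summed intensity of 199683.6 to 202327.9 in d/d livers and 197901.4 to 207820.4 in f/f livers over 10 markers, so the tissue read as liver in every array. Of these, 1 of 10 (10%), Tat, was lower at an unadjusted p under 0.05 in limma, where 3.07% of all genes were. Tat is also counted among the enzymes of amino acid metabolism below. Summed markers of Kupffer cells, the liver macrophages, ran from 2764.3 to 3508.2 in d/d livers and from 3200.7 to 4487 in f/f livers, with 11 of 12 markers (91.7%) at a lower fitted value in d/d, against 53.5% of all genes tested. The highest of these f/f sums was that of f/f replicate 3, the other two being 3200.7 and 3916.2, and 11 of 12 markers were also lower in d/d without that array. Summed markers of stellate cells ran from 2927 to 3714.5 in d/d livers and from 3635.9 to 4479.2 in f/f livers, with 7 of 10 (70%) at a lower fitted value. In both lists 0 markers reached an adjusted p under 0.05 by limma, and 2 of each were lower at an unadjusted p under 0.05 (16.7% and 20%, where 3.07% of all genes were). Without f/f replicate 3 these were 2 of the Kupffer and 4 of the stellate markers, where 5.29% of all genes were. The part of these cell types in the differences below was not tested, and in bulk liver RNA fewer cells of a type and less RNA per cell cannot be told apart. One array, f/f replicate 3, had a mean correlation of 0.9518 with the rest, where the other arrays had 0.9745 to 0.9782. For many of the named genes the difference on the brightest probe set is given without that array as well.

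No amino acid transporter passed the test between the genotypes, and most differences were small. No member passed an adjusted p of 0.05 (0 of 46, limma with Benjamini-Hochberg adjustment), where 0.0948% of all genes tested did (0.0437% higher and 0.051% lower in d/d), and the smallest adjusted p of a member was 0.449. The median difference, d/d minus f/f, was -0.0056 log2 over the 46 members and -0.015 over all genes tested, with 22 members above 0 and 24 below. At an unadjusted p under 0.05, 1 member lay higher in d/d livers, Slc38a2, and 1 lower, Slc6a2, which is 2.17% of the members in each direction, against 4.77% of all genes higher and 3.07% lower (7.84% in either direction). The groups did not overlap for 2 members that lay higher and 3 that lay lower, 4.35% and 6.52% of members, against 7.9% and 6.79% of all genes (14.7% in either direction).

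The precision behind these values was enough to bound most of the differences in probe set signal. The 95% interval of the difference, taken gene by gene, stayed within 1.5-fold in both directions, on the brightest probe set and on the log2(intensity + 16) scale, for 41 of the 46 members (89.1%, where 77.4% of all genes tested did). The exceptions were Slc3a1, Slc6a2, Slc6a17, Slc6a19os and Slc1a1. Of the members within the bound, 10 were among the 12 brightest and 31 among the 34 others tested. Those others were dim, and the added 16 understates any change in them, so the bound says less there. Within 2-fold lay the intervals of 45 members (97.8%, where those of 97.1% of all genes tested did), all except Slc3a1. Of 24 further probe sets of these genes above the filter, 5 had an interval that went past 1.5-fold, from Slc38a2, Slc7a2 and Slc7a6, so for these 3 genes the bound does not hold on every probe set.

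**Figure D1:**
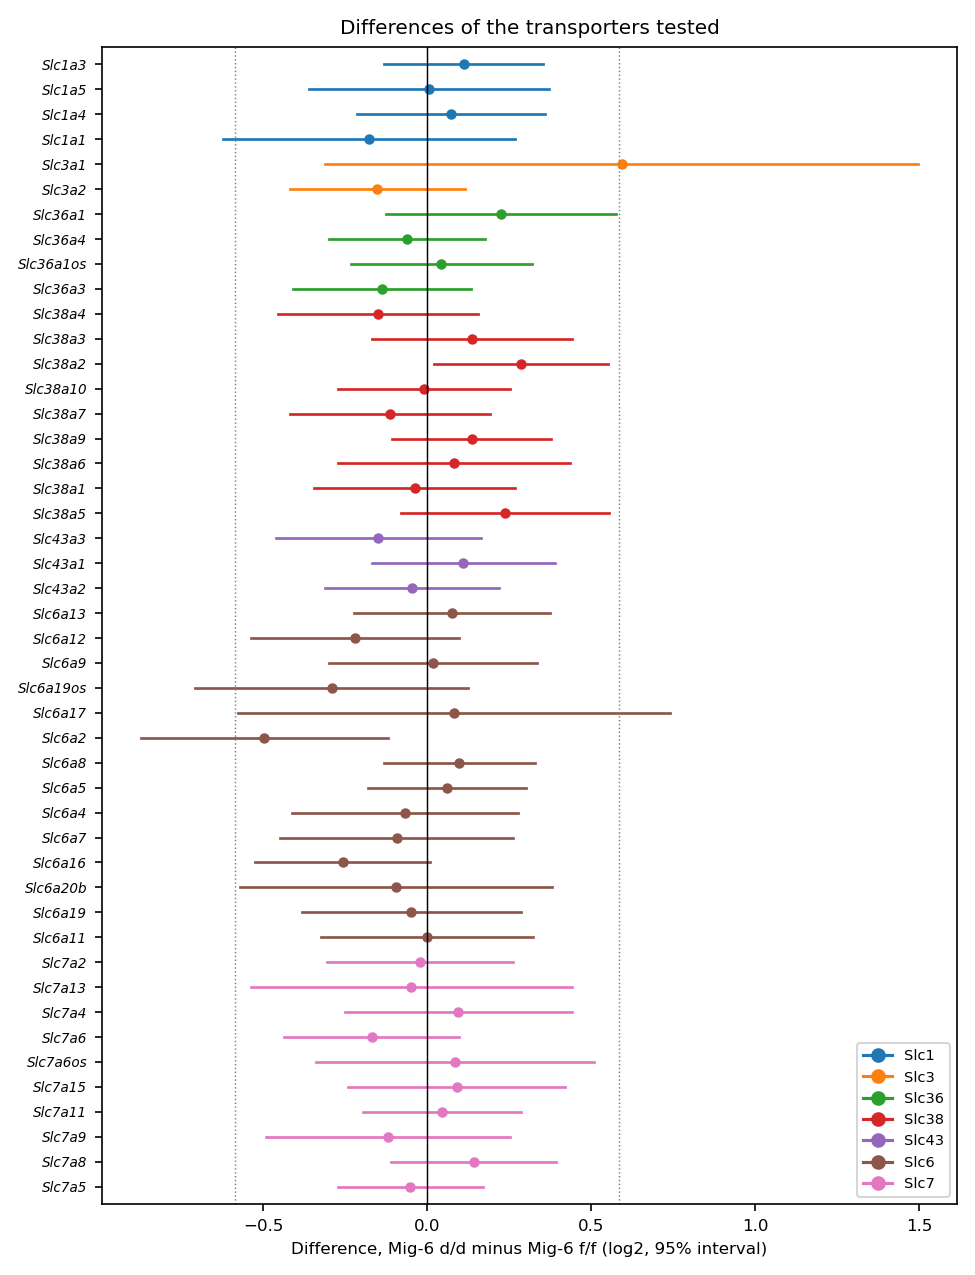
Difference in each transporter tested, Mig-6 d/d minus Mig-6 f/f on the log2 scale (horizontal axis), with its 95% interval from limma (n = 3 arrays per group) and genes grouped by family down the page. Dotted lines mark 1.5-fold. The intervals of Slc38a2 and Slc6a2 leave out 0, those of the other transporters include it, and that of Slc3a1 is the widest, from -0.31 to 1.5.

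The sodium-coupled carriers of the Slc38 family gave the brightest probe sets of the group. Intensities of different probe sets do not rank their transcripts, since probes differ in affinity, so each gene is compared with itself. Slc38a4, a carrier of neutral amino acids found mainly in liver, read 4961.5, 5272 and 5237 in d/d livers, against 6363, 6123 and 5078 in f/f livers. The groups overlapped through f/f replicate 3, and the log2 difference was -0.15 ± 0.13 (SE, adjusted p = 0.84 in limma, 95% interval -0.45 to 0.15). It was -0.27 without f/f replicate 3 (unadjusted p = 0.0259, adjusted p = 0.346 in limma), -0.26 with array weights (unadjusted p = 0.0252) and -0.05 without f/f replicate 1. Slc38a3, the glutamine carrier of hepatocytes, read 5016, 5516 and 5344 in d/d livers, against 4481, 5932 and 4397 in f/f livers. The highest reading and both of the lowest came from f/f arrays, and the difference was 0.14 ± 0.13 (SE, 95% interval -0.17 to 0.44), or 0.052 without f/f replicate 3. Slc38a10 had 406 ± 13.1 in d/d livers and 411 ± 45.9 in f/f livers (SD, n = 3 each), a difference of -0.01 with an interval from -0.27 to 0.25, or 0.073 without f/f replicate 3.

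Slc38a2, the amino acid carrier of many tissues whose transcript is known to increase when cells lack amino acids, read 1602.5, 1822 and 1537 in d/d livers, against 1237, 1480.5 and 1363 in f/f livers. Every d/d array lay above every f/f array. The log2 difference was 0.29 ± 0.12 (SE), or 1.22-fold, with a 95% interval from 0.022 to 0.55, and it did not pass over all genes (unadjusted p = 0.037, adjusted p = 0.592 in limma). A second probe set of Slc38a2 read 408, 536 and 482 in d/d livers, against 376, 355 and 254 in f/f livers. Its groups did not overlap either, at a difference of 0.53 ± 0.17 (SE, unadjusted p = 0.0103 in limma over all named probe sets). The lowest f/f reading, 254, was that of f/f replicate 3, and the difference without that array is not given for this probe set. The third probe set, under the filter on dim probe sets, had 43.2 in d/d livers and 43.9 in f/f livers. The unadjusted p of the first probe set was 0.051 with values as deposited and 0.0745, 0.135 and 0.128 without d/d replicate 1, d/d replicate 2 or f/f replicate 1. With 1 array left out, the difference on the first probe set ran from 0.22 to 0.34. Both bright probe sets measure the same RNA samples and are not independent of each other.

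The other Slc38 members tested lay outside the 12 brightest. Slc38a5, a glutamine and histidine carrier, read 69.0, 68.8 and 59.8 in d/d livers, against 60.6, 56.6 and 46.1 in f/f livers. Its groups separated after scaling between arrays and overlapped in the deposited values, and the difference was 0.24 ± 0.14 (SE, adjusted p = 0.761 in limma), or 0.098 without f/f replicate 3. Slc38a9, the lysosomal arginine sensor of the mTORC1 kinase complex, had 110 ± 11.1 in d/d livers and 100.4 ± 9.67 in f/f livers (SD, n = 3 each). Slc38a7, a lysosomal glutamine exporter, had 121 ± 3.52 in d/d livers and 135 ± 31.7 in f/f livers, where f/f replicate 3 read 171. Slc38a1, a glutamine carrier best known from brain, had 60.7 ± 6.92 in d/d livers and 64.6 ± 15.1 in f/f livers, and Slc38a6 had 96.9 ± 11.1 in d/d livers and 91.9 ± 10.5 in f/f livers. Over the 9 Slc38 genes tested the median difference was 0.081, with 5 above 0 and 4 below.

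**Figure D2:**
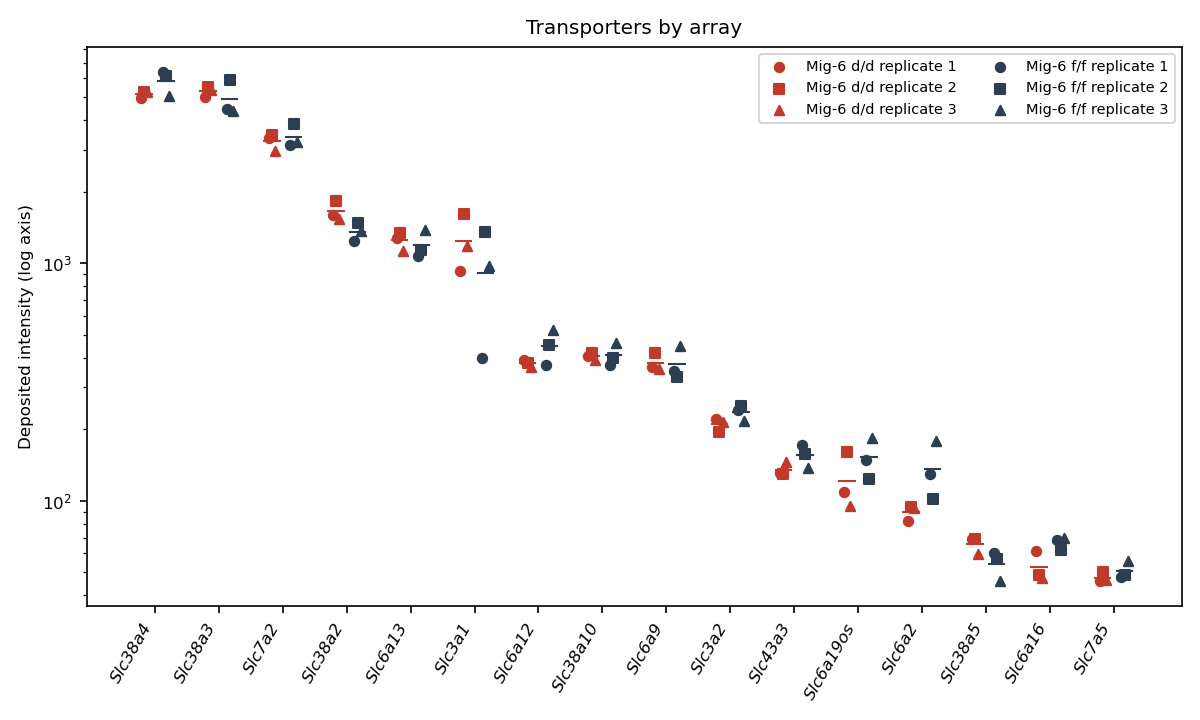
Deposited intensity on each array (vertical log axis) for the 12 brightest transporters and for the others whose groups did not overlap after scaling, with Mig-6 d/d in red left of Mig-6 f/f in dark blue, a symbol for each replicate number and a bar for the group mean. The 3 d/d arrays of Slc38a2 sit between 1537 and 1822, above the f/f arrays at 1237 to 1480.5, and f/f replicate 1 of Slc3a1 sits alone at 401.

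Among carriers of cationic amino acids, Slc7a2, the arginine, lysine and ornithine carrier of hepatocytes, read 3368, 3481 and 2982 in d/d livers, against 3151, 3866 and 3232 in f/f livers. These ranges overlapped, at a log2 difference of -0.023 ± 0.12 (SE, adjusted p = 0.972 in limma, 95% interval -0.31 to 0.26). The sign is not settled: the difference was 0.04 without d/d replicate 3 and 0.069 with f/f replicate 2 left out. Leaving out f/f replicate 3 gave -0.053 on this probe set. Its 3 other probe sets, all above the filter, had differences of -0.24, -0.28 and -0.26, with unadjusted p of 0.233, 0.102 and 0.14 in limma. On each of these, f/f replicates 1 and 2 read above every d/d array and f/f replicate 3 did not. Differences without that array are not given for these probe sets. Slc7a1, the cationic carrier of most tissues other than liver, stayed under the filter on each of its probe sets, the brightest at 44.8 in d/d livers and 33.0 in f/f livers.

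Both heavy chains of the heteromeric carriers were among the 12 brightest. Slc3a1, the partner of Slc7a9 in cystine and cationic amino acid exchange, read 926, 1609 and 1177 in d/d livers, against 401, 1353 and 975 in f/f livers. The f/f arrays differed among themselves by 3.38-fold, more than for any other of the 46 members tested, and the groups overlapped. The difference of 0.59 ± 0.39 (SE, adjusted p = 0.794 in limma) became 0.11 with f/f replicate 1 left out and 0.95 with f/f replicate 2 left out (adjusted p = 0.884 and 0.54 in limma). Slc3a2, the heavy chain of most other Slc7 partners, read 220, 194 and 215 in d/d livers, against 240, 252 and 217 in f/f livers, a difference of -0.15 ± 0.12 (SE, adjusted p = 0.813 in limma, -0.23 without f/f replicate 3).

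Several light chains read near the filter, which lay at an intensity of 48.3. Slc7a5, an exchanger of large neutral amino acids, read 46.1, 49.9 and 46.3 in d/d livers, against 47.6, 48.6 and 56.0 in f/f livers, and a difference of -0.053 ± 0.096 (SE, adjusted p = 0.919 in limma). Its groups separated after scaling and overlapped as deposited. Slc7a8, its relative in epithelia, had 52.5 ± 7.19 in d/d livers and 46.8 ± 5.35 in f/f livers (SD, n = 3 each). Slc7a9 had 52.5 ± 4.6 in d/d livers and 61.7 ± 23.9 in f/f livers, where f/f replicate 3 read 89.2. Slc7a6, an exchanger of cationic and neutral amino acids, had a difference of -0.17 ± 0.12 (SE) on the probe set that stood for it and 0.29 ± 0.16 on the other, with unadjusted p of 0.179 and 0.093 in limma over all named probe sets, so its probe sets disagree in sign. Slc7a7, the other such exchanger, lay just under the filter at 48.9 in d/d livers and 41.6 in f/f livers. Slc7a11, the cystine and glutamate exchanger, had 56.8 ± 4.9 in d/d livers and 55.8 ± 9.23 in f/f livers, a difference of 0.045 ± 0.11 (SE, adjusted p = 0.937 in limma, 0.092 without f/f replicate 3). Slc7a13 and Slc7a4 had 121 ± 34.0 and 117 ± 27.2 in d/d livers, against 128 ± 43.2 and 109 ± 9.32 in f/f livers, and Slc7a15 had 60.4 ± 14.8 in d/d livers and 55.6 ± 2.12 in f/f livers. Slc7a6os, a protein-coding gene named for its place opposite Slc7a6 and no transporter, had 73.4 ± 11.4 in d/d livers and 69.3 ± 13.8 in f/f livers. Over the 10 Slc7 genes tested the median difference was 0.011, with 5 on each side of 0.

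The promoter of Slc7a11 is known to bind the stress factor ATF4 at elements with the letters TGATGNAA, where N is any base. These letters were looked for on both strands in the 250 bases before the start of each gene in RefSeq promoters of build GRCm38.p6, which hold 45 of the 61 genes of the group. They occur in 3 of these 45 genes, 6.67%, against 3.91% of all 27025 genes in the table. No match came up for Slc38a2. Whether Slc38a2 is among the 45 genes is not given here, and bases outside this window were not searched. The stretches that hold the letters are shown, with the matching letters in capitals, because Slc7a11 and Slc38a2 are both known as genes that answer to amino acid shortage. A match describes the letters only.
Slc7a11, chr3:50443633-50443699, minus strand: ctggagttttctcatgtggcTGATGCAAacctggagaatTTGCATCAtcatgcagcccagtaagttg
Slc7a7, chr14:54418058-54418105, minus strand: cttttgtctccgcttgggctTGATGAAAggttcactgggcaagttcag
Slc7a7, chr14:54417918-54417952, minus strand: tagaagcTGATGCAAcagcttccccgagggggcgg
Slc6a21, chr7:45282825-45282872, plus strand: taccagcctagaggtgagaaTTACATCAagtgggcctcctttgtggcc
Among these stretches, that of Slc7a11 holds a pair in opposite orientation, the first match 66 and the last 47 bases before its start, and the 2 stretches of Slc7a7 precede different annotated starts. Of the 3 genes, Slc7a11 was tested and had overlapping groups, while Slc7a7 and Slc6a21 were under the filter.

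In the Slc6 family, the bright members were carriers of betaine, GABA and glycine. Slc6a13, a GABA and taurine carrier of hepatocytes, read 1274, 1346 and 1126 in d/d livers, against 1078, 1134 and 1382 in f/f livers. The groups overlapped, with a log2 difference of 0.076 ± 0.13 (SE, 95% interval -0.22 to 0.38), or 0.19 without f/f replicate 3. Slc6a12, the betaine carrier, read 390.3, 382 and 366 in d/d livers, against 373, 452 and 525 in f/f livers, a difference of -0.22 ± 0.14 (SE, adjusted p = 0.778 in limma, -0.10 without f/f replicate 3). Slc6a9, a glycine carrier, read 367, 419 and 357 in d/d livers, against 351, 332 and 450.1 in f/f livers, a difference of 0.018 ± 0.14 (SE) whose sign turned when d/d replicate 2, f/f replicate 1 or f/f replicate 2 was left out, and which was 0.15 without f/f replicate 3. Slc6a8, the creatine carrier, had 98.5 ± 3.52 in d/d livers and 92.5 ± 6.44 in f/f livers (SD, n = 3 each).

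Slc6a2, the noradrenaline carrier of sympathetic nerve endings, read 81.8, 94.1 and 93.4 in d/d livers, against 129, 101.5 and 179 in f/f livers. All d/d arrays lay below all f/f arrays, and the f/f arrays were spread over 1.76-fold. The log2 difference was -0.50 ± 0.16 (SE, 95% interval -0.87 to -0.12), with an unadjusted p of 0.0158 and an adjusted p of 0.449 in limma. Without f/f replicate 3 it was -0.34, and averaged over its probe sets -0.14 (unadjusted p = 0.113). The unadjusted p was 0.0592 when d/d replicate 1 was left out. Its second probe set above the filter had 0.091 ± 0.12 (SE) with overlapping groups. Slc6a16, an orphan member, read 61.6, 48.9 and 47.5 in d/d livers, against 68.6, 62.3 and 69.8 in f/f livers. These groups did not overlap either, at a difference of -0.26 ± 0.12 (SE, unadjusted p = 0.0571, adjusted p = 0.65 in limma), or -0.29 without f/f replicate 3 (unadjusted p = 0.0362). Slc6a19os, an RNA annotated opposite the neutral amino acid carrier Slc6a19 and no transporter itself (whether its probes tell the strands apart is not stated), read 108, 160.2 and 94.6 in d/d livers, against 148, 124 and 184 in f/f livers, a difference of -0.29 ± 0.18 (SE, adjusted p = 0.778 in limma), or -0.19 without f/f replicate 3. Slc6a19 had 52.1 ± 8.47 in d/d livers and 55.1 ± 6.73 in f/f livers (SD, n = 3 each). The 6 others tested in the family, Slc6a4 and Slc6a5, carriers of serotonin and glycine, with Slc6a7, Slc6a11, Slc6a17 and Slc6a20b, all had overlapping groups. Of these Slc6a17 was the most variable, at 118 ± 43.8 in d/d livers and 115 ± 46.5 in f/f livers. Over the 14 Slc6 genes tested the median difference was -0.058, with 5 above 0 and 9 below.

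In the Slc1, Slc36 and Slc43 families the groups of every gene tested overlapped after scaling. Of the Slc1 family 4 genes were tested, with differences from -0.18 to 0.11. Slc1a3, a glutamate carrier, had 80.7 ± 9.55 in d/d livers and 75 ± 10.1 in f/f livers (SD, n = 3 each), with a difference of 0.11 ± 0.11 (SE). Slc1a4 and Slc1a5 carry small neutral amino acids such as alanine, serine and glutamine. Slc1a4 had 50.5 ± 5.56 in d/d livers and 48.5 ± 11.8 in f/f livers, with a difference of 0.073, or 0.16 without f/f replicate 3. Slc1a5 had 67.8 ± 13.3 in d/d livers and 69.0 ± 18.6 in f/f livers. The Slc36 family gave 4 genes, with differences from -0.14 to 0.23. Slc36a1, a proton-coupled carrier of lysosomes and gut, read 81.1, 81.6 and 98.1 in d/d livers, against 77.7, 77.5 and 62.7 in f/f livers. Its groups were apart as deposited and overlapped after scaling, with a difference of 0.23 ± 0.15 (SE, adjusted p = 0.798 in limma), or 0.089 without f/f replicate 3. Slc36a3 had 54.2 ± 4.35 in d/d livers and 63.1 ± 12.8 in f/f livers, and Slc36a4 had 66.1 ± 2.75 in d/d livers and 71.2 ± 8.69 in f/f livers. Slc36a1os, a long noncoding RNA named for its place opposite Slc36a1, had 63.8 ± 12.6 in d/d livers and 61.8 ± 3.53 in f/f livers. Of the Slc43 family 3 genes were tested. Slc43a3, known as a carrier of purine bases, read 131, 130 and 145 in d/d livers, against 172, 158 and 138 in f/f livers, with a difference of -0.15 ± 0.14 (SE, adjusted p = 0.842 in limma). It was -0.28 without f/f replicate 3 (unadjusted p = 0.0301, adjusted p = 0.368 in limma), -0.26 with array weights (unadjusted p = 0.0254) and -0.059 without f/f replicate 1. Slc43a1 and Slc43a2, carriers of branched-chain and other large neutral amino acids, had 92.4 ± 9.08 and 76.2 ± 3.79 in d/d livers, against 85.8 ± 7.09 and 80.5 ± 2.92 in f/f livers.

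Among the 34 members tested outside the 12 brightest, f/f replicate 3 gave the highest deposited reading of the f/f arrays for 26 of 34 (76.5%), and after scaling between arrays for 18 (52.9%). Over all genes tested these shares were 53.8% and 42.4%. Their group means lay between 46.2 and 121 in d/d livers and between 46.8 and 136.5 in f/f livers, and the pseudocount of 16 understates any change of such dim genes. A further 15 members had no probe set above the filter: Slc1a6, Slc1a7, Slc36a2, Slc6a3, Slc6a14, Slc6a15, Slc6a18, Slc6a20a, Slc6a21, Slc7a1, Slc7a3, Slc7a7, Slc7a10, Slc7a12 and Slc7a14. Their means lay between 17.9 and 48.9 in d/d livers and between 18.7 and 47.2 in f/f livers. At the filter itself, Slc1a1 was just inside, at 46.2 ± 17.5 in d/d livers and 54.5 ± 16.6 in f/f livers (SD, n = 3 each), with a difference of -0.18, or -0.045 without f/f replicate 3, and Slc36a2 just outside, at 45.7 in d/d livers and 47.2 in f/f livers.

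Different probe sets of one transporter bear on how far each value can be read. Of the 46 members, 13 had more than 1 probe set above the filter. For 7 of these, Slc1a5, Slc38a2, Slc38a3, Slc38a10, Slc6a8, Slc6a9 and Slc7a2, the probe sets shared a sign. For the other 6, Slc1a3, Slc38a4, Slc38a9, Slc6a2, Slc6a17 and Slc7a6, both signs occurred. Slc38a4 had -0.15 on its brightest probe set and 0.11 on the other, at 3170 in d/d livers and 3050 in f/f livers. On that other probe set f/f replicate 3 read 2364, below every d/d array, where f/f replicates 1 and 2 read 3111 and 3676. The difference without f/f replicate 3 is not given for it, so its sign may rest on that array.

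**Figure D3:**
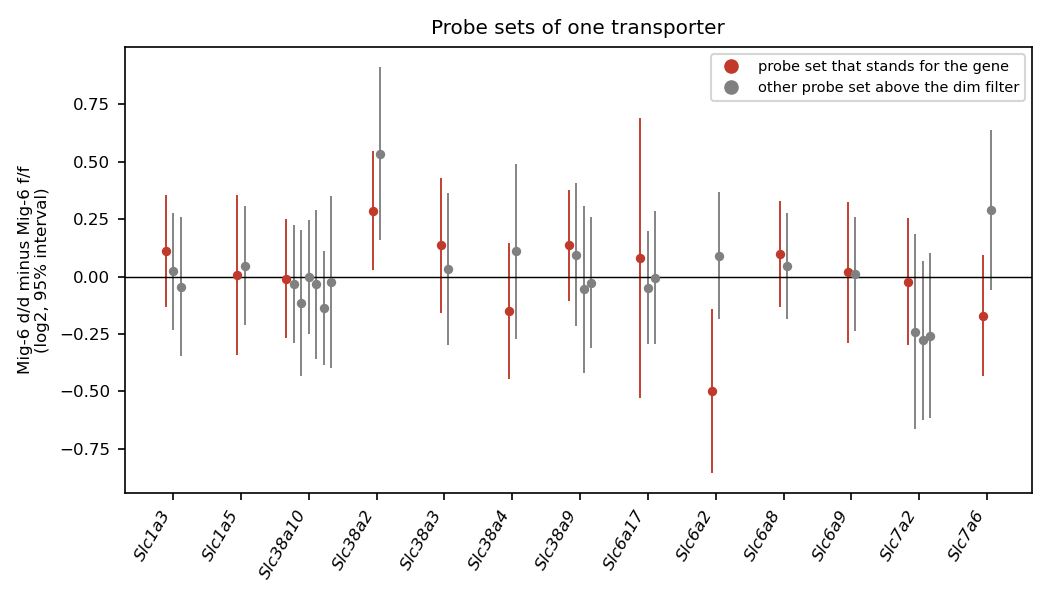
Difference of each probe set above the dim filter, Mig-6 d/d minus Mig-6 f/f in log2 with its 95% interval (vertical axis), for the 13 transporters with more than 1 such probe set, from limma over all named probe sets with n = 3 arrays per group. Red marks the probe set that stands for the gene. Both probe sets of Slc38a2 lie above 0, at 0.29 and 0.53, and those of Slc6a2 lie at -0.50 and 0.091.

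Enzymes of amino acid metabolism, most of them of breakdown, were read beside the carriers that bring amino acids in. Of 42 enzymes listed, 36 were tested. None had an adjusted p under 0.05 (0 of 36, limma), and there were 7 lower and 1 higher in d/d livers at an unadjusted p under 0.05, 19.4% and 2.78% of the list, against 3.07% of all genes lower and 4.77% higher. The median difference was -0.044. Got1, the cytosolic aspartate aminotransferase, read 2686, 3321 and 2600 in d/d livers, against 5033, 6330 and 6837 in f/f livers. The d/d readings were all below the lowest f/f reading, and the difference was -1.02 ± 0.14 (SE, adjusted p = 0.0673 in limma), or 2.03-fold lower. The adjusted p was under 0.05 in 6 alternatives, among them 0.00736 with array weights and 0.0325 without f/f replicate 3, and ran from 0.00736 to 0.391 over all 17. Aass, the first enzyme of lysine breakdown, read 1763, 1806 and 1709 in d/d livers, against 2989, 2679 and 2758 in f/f livers, a difference of -0.63 ± 0.10 (SE, adjusted p = 0.103 in limma, from 0.0111 to 0.526 over the alternatives and 0.0413 without f/f replicate 3). Oat, ornithine aminotransferase, was picked after its values were seen. It read 3432, 3644 and 3229 in d/d livers, against 6991, 6509.5 and 5166 in f/f livers. The difference was -0.80 ± 0.14 (SE, adjusted p = 0.119 in limma). In limma the adjusted p of Oat ran from 0.00389 to 0.526 over the alternatives, and was 0.0111 without f/f replicate 3. Lysine and ornithine are both substrates of Slc7a2, for which the groups overlapped. On the probe sets of Slc7a2 other than the brightest, f/f replicates 1 and 2 read above every d/d array and f/f replicate 3 did not. The groups therefore overlapped on these probe sets too. A link between the carrier and these enzymes was not tested.

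Regulators of transporter genes did not pass either. Of 18 listed, 17 were tested, and 3 lay higher and 1 lower at an unadjusted p under 0.05 (17.6% and 5.88%, against 4.77% of all genes higher and 3.07% lower), with a median difference of 0.053. Ddit3, a stress factor, read 123, 99.3 and 130.0 in d/d livers, against 71.0, 74.6 and 74.9 in f/f livers, a difference of 0.58 ± 0.13 (SE, adjusted p = 0.231 in limma). The d/d readings all lay above those of f/f. Other stress factors of the list, picked after their values were seen, did not share this sign throughout. Nfe2l2 shared it, with 410 ± 43.1 in d/d livers and 289 ± 85.3 in f/f livers (SD, n = 3 each), where f/f replicate 3 read 202. Its groups did not overlap, at a difference of 0.53 ± 0.21 (SE, unadjusted p = 0.0355, adjusted p = 0.587 in limma). Atf4 had 597 ± 13.8 in d/d livers and 727 ± 125 in f/f livers (SD, n = 3 each), where f/f replicate 3 read 851. Its difference was -0.26 ± 0.13 (SE, adjusted p = 0.707 in limma). Atf5 had 756.5 ± 87.8 in d/d livers and 935 ± 32.5 in f/f livers, with separate groups and a difference of -0.29 ± 0.12 (SE, unadjusted p = 0.0391, adjusted p = 0.598 in limma). Trib3 had a difference of 0.068 ± 0.17 (SE), where f/f replicate 3 read 106, the lowest of the f/f arrays. Differences without f/f replicate 3 are not given for Nfe2l2, Atf4, Atf5 and Trib3. Nr3c1, the glucocorticoid receptor, had 0.29 ± 0.10 (SE, adjusted p = 0.519 in limma), or 0.51 on its most variable probe set (unadjusted p = 0.165). Of the genes of amino acid sensing at the lysosome, 17 of 18 were tested, with a median of 0.00054. At an unadjusted p under 0.05 in limma there were 0, against 7.84% of all genes in either direction. Rraga, a small GTPase of that complex, had -0.28 ± 0.18 (SE), or -0.43 without f/f replicate 3 (unadjusted p = 0.0298 in limma), and Lamtor1, a subunit of its anchor, -0.19 ± 0.12, or -0.073 without that array.

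Among carriers of other families, 7 of 11 were tested, with a median difference of 0.061. At an unadjusted p under 0.05 in limma 1 was lower (14.3%, against 3.07% of all genes). Slc16a10, which lets aromatic amino acids cross the membrane, read 175, 200.3 and 161 in d/d livers, against 227, 271 and 271 in f/f livers. These groups did not overlap, and the difference was -0.47 ± 0.12 (SE, unadjusted p = 0.00407, adjusted p = 0.277 in limma). Averaged over all its probe sets it was -0.25 (unadjusted p = 0.0256, adjusted p = 0.538 in limma). Slc32a1, a vesicular carrier of GABA and glycine, had -0.19 ± 0.13 (SE). Of 6 accessory proteins listed, Bsg, a chaperone of monocarboxylate carriers, and Cd44, which is known to steady Slc7a11 at the membrane, were tested, with -0.22 ± 0.11 and 0.05 ± 0.18 (SE).

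**Figure D4:**
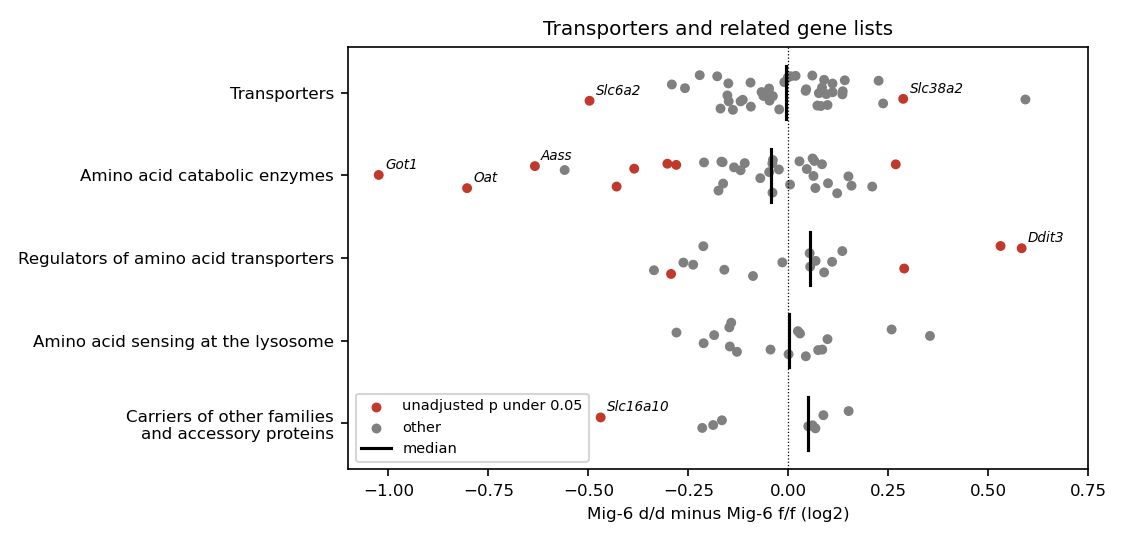
Differences, Mig-6 d/d minus Mig-6 f/f in log2 (horizontal axis), a point per gene with random height within its row. The rows hold the 46 transporters tested, 36 enzymes of amino acid metabolism, 17 regulators, 17 genes of lysosomal sensing, and carriers of other families with accessory proteins. Red points have an unadjusted p under 0.05 in limma and black bars are medians, at -0.0056 for the transporters and -0.044 for the enzymes, of which Got1 lies at -1.02.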

How the data were processed

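The authors deposited an intensity on a linear scale for each of 45101 probe sets on 6 Affymetrix arrays, hybridised with biotin-labelled RNA per the labels' protocols. The sources used here do not give the summary, background or scaling steps behind the intensities. Array medians ran from 55.6 to 65.4, and precision is limited by having 6 arrays. Symbols came from the platform's annotation (34945 probe sets with 1 symbol, 932 with several, 9160 with none), and all 61 transporters were found in the GRCm38.p6 gene table with 0 symbols updated.

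The deposited intensities were put on a log2 scale after adding 16. Since array medians lay up to 0.185 log2 apart, past a tolerance of 0.1, quantile normalization followed. Control probe sets and those with several symbols or none were left out. Probe sets in the lowest 40% by mean over all 6 arrays (log2 6.01) were left out, and the brightest probe set stood for each gene. The d/d and f/f arrays were fitted in limma 3.58.1 (lmFit, eBayes; R 4.3.3) with no covariate, at 4.19 prior and 4 residual degrees of freedom. Adjusted p-values are Benjamini-Hochberg values across all 13718 genes. Probe sets were also fitted singly, without the filter. Figures used matplotlib 3.10.9. The fit was tested on simulated data.

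The rule for named genes takes Errfi1, members with an unadjusted p under 0.05 or separate groups, the 12 brightest, the brightest of each family, members at the filter and the 2 smallest p of each related list. The transporters and lists were chosen with earlier results of these data known. Alternatives covered scaling, pseudocount, filter, probe set choice, variance model, array weights, replicate block and each array left out.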

Additional observations from a re-analysis of the deposited data

How the results depend on the processing

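In all 17 alternatives 0 transporters passed an adjusted p of 0.05 in limma, and Errfi1 passed in each, with differences from -6.40 to -5.43. At an unadjusted p under 0.05, the count of transporters higher in d/d was 1, and 0 with values as deposited, and the count lower was 1, and 2 with values as deposited, a pseudocount of 1 or a trended robust variance and 4 with array weights. With 1 array left out these counts ran from 0 to 2 and from 1 to 4, the 4 without f/f replicate 3. Without that array 5.29% of all genes were lower at this threshold and 5.88% higher, against 3.07% and 4.77% in the main fit. For the other alternatives the share over all genes is not given here. Slc38a4, Slc43a3, Slc6a2 and Slc6a16 made up the 4 both without f/f replicate 3 and with array weights. The median difference was 0.052 with array weights (0.178 for f/f replicate 3) and ran from -0.034 to 0.048 with 1 array left out. The labels do not state that the replicate numbers pair animals, so arrays were not taken as pairs. Deviations of same-numbered arrays had correlations of -0.0033, -0.144 and -0.465, and those of unlike-numbered arrays ran from -0.466 to 0.43. With 3 arrays per group these correlations cannot decide whether the numbers are pairs. With the replicate block, 0 transporters passed and the median was -0.0056, while calls over all genes came to 6 in place of 13, and the unadjusted p was 0.0682 for Slc38a2 and 0.0285 for Slc3a1. Calls over all genes were 215 with array weights, 85 without f/f replicate 3, 21 with a trended robust variance, 20 with all probe sets averaged and 4 without d/d replicate 1. Of 22 transporters named with a difference, 14 kept their sign throughout. Signs turned for Slc38a10 with a common median (0.0083) and array weights (0.067), for Slc7a11 (-0.12) and Slc7a6 (0.060) with all probe sets averaged, and for Slc1a3 (-0.044), Slc38a4 (0.11) and Slc7a6 (0.29) with the most variable probe set. Among accessory genes, Cd44 turned with array weights (-0.048). With 1 array left out, differences ran from -0.065 to 0.15 for Slc6a9, -0.0695 to 0.073 for Slc38a10, -0.083 to 0.069 for Slc7a2, -0.016 to 0.16 for Slc1a4, -0.0029 to 0.092 for Slc7a11 and -0.10 to 0.26 for Cd44. The causes were not tested.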
